A study of Mus musculus with 30 samples.

Results

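The interferon response and antigen presentation genes are a set of 35 named mouse genes, found by symbol among the 55335 genes of a liver RNA-seq count table, and all 35 were matched to 1 gene each. They comprise 6 transcription factors (Stat2, Irf1, Irf7, Irf8, Irf9, Ciita), 10 antiviral effectors (Isg15, Ifit1, Ifit2, Ifit3, Ifi44, Oas1a, Oasl2, Rsad2, Usp18, Bst2), 9 interferon-inducible GTPases (Gbp2, Gbp3, Gbp6, Gbp7, Ifi47, Igtp, Irgm1, Irgm2, Iigp1), 4 genes of MHC class I presentation (B2m, H2-K1, H2-D1, Tap1), 4 of MHC class II presentation (H2-Aa, H2-Ab1, H2-Eb1, Cd74) and 2 chemokines (Cxcl9, Cxcl10). The study asked how bardoxolone methyl (CDDO-Me), a triterpenoid that activates the transcription factor NRF2, alters hepatic gene expression when a sensor cysteine of KEAP1, the repressor of NRF2, is replaced by serine (the C151S mutation). Wild-type mice, Keap1 C151S knock-in mice (C151S, homozygous for the point mutation) and Nrf2-knockout mice each received a single oral dose of vehicle or of CDDO-Me at 30 µmol/kg, and livers were taken 24 h later. Each of the 6 groups held 5 mice with 1 library per mouse, 30 libraries in all. All mice were males of 7 to 10 weeks on an albino C57BL/6J background, so every group, the wild-type group included, carried the tyrosinase mutation of that background. Both mutations were carried in every cell of the animal, and whole liver was sequenced.

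Type I interferon signals through a complex that holds STAT2 and IRF9 and binds the interferon-stimulated response element (ISRE) of antiviral genes. Interferon-γ acts mainly through the gamma-activated site (GAS) and switches on IRF1, the GTPases and the antigen presentation genes. In liver, class I molecules are displayed by nearly every cell, and class II molecules mainly by dendritic cells, B cells and macrophages, where CIITA is the master regulator of class II transcription. Fewer cells of a type and less RNA per cell cannot be told apart in whole-liver samples, and this holds for every class II value given here.

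Promoter windows from 250 bases before to 50 bases after the transcription start (RefSeq, GRCm38.p6) existed for 29 of the 35 members and for 27025 genes in all. The ISRE core, GAAA followed by 2 bases of any kind and a second GAAA, searched on both strands, lay in the windows of 15 of the 29 members (51.7%) and of 3.99% of all genes with a window. The GAS letters TTCNNNGAA lay in 8 of the 29 (27.6%) against 9.55% of all genes, and the core TGACNNNGC of the antioxidant response element, the site through which NRF2 acts, lay in 9 of the 29 (31.0%) against 13.99%. Stretches from 4 of the antiviral effectors whose transcripts moved in wild-type mice, from the chemokine Cxcl10 and from Irf1 are printed 5′ to 3′ on the strand of the gene, to show the letters with which these genes were counted. Capitals mark the matches (ISRE for the first 5, GAS for Irf1), and a match describes the letters and is not evidence of binding.
Ifit3, chr19:34583358-34583431, plus strand: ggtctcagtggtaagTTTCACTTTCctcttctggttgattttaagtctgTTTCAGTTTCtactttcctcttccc
Ifit1, chr19:34640770-34640828, plus strand: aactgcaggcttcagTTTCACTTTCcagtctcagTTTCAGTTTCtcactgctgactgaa
Isg15, chr4:156200860-156200911, minus strand: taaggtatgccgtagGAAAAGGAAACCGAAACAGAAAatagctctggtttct
Rsad2, chr12:26456548-26456587, minus strand: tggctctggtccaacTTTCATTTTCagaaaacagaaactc
Cxcl10, chr5:92349078-92349117, minus strand: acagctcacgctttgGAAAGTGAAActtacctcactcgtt
Irf1, chr11:53769909-53769947, plus strand: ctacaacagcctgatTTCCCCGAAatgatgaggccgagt
The matches of Ifit3 lay 156 and 122 bases before the start, those of Ifit1 104 and 85, and that of Rsad2 120. Isg15 held 3 overlapping matches between 78 and 66 bases before its start. All 6 stretches lay upstream of the RefSeq start of their gene, and that of Cxcl10 also lay within the annotated span of Art3.

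Levels are given as CPM, the counts of a gene scaled to a common effective library size. The libraries held 23667068 to 42073169 counts assigned to genes (median 33229925), and every member was tested in every comparison, with a lowest count of 12 in any library. Nfe2l2, the gene that encodes NRF2, was at 66.1 ± 4.15 CPM (SD, n = 5) in vehicle-treated wild-type mice and at 35.1 ± 4.54 CPM in vehicle-treated Nrf2-knockout mice. Nqo1, a prototypic NRF2 target, was at 7.20 ± 2.38 CPM with vehicle and 64.3 ± 25.0 CPM with CDDO-Me in wild-type mice, at 6.70 ± 0.386 and 7.05 ± 1.04 CPM in C151S mice and at 1.96 ± 0.521 and 2.55 ± 0.612 CPM in Nrf2-knockout mice. The clock gene Arntl parted the mutant libraries, since 5 of 10 C151S and 6 of 10 Nrf2-knockout libraries were at or under 1.81 CPM while all other libraries, every wild-type one among them, were at or above 5.69 CPM. Comparisons of a mutant with wild-type mice are therefore given also with the Arntl side as a term or within the libraries of high Arntl. The mice are separate animals, but the day on which each was dosed or its RNA was isolated is not given in the sources used here. The study's own model took in possible batch effects of the isolation date, and the fits here hold no such term.

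In vehicle-treated wild-type liver the class I genes B2m, H2-K1 and H2-D1 led the set when levels were set per gene length. B2m, the invariant light chain of class I, stood at 1539 ± 120 RPKM (CPM per kilobase of exon, SD, n = 5), followed by the class I heavy chains H2-K1 at 368 ± 18.2 RPKM and H2-D1 at 165 ± 10.5 RPKM. The remaining class I gene, Tap1, ranked lower, at 3.88 ± 0.474 RPKM. Bst2, which tethers budding virions to the cell, stood at 140.8 ± 10.04 RPKM and Iigp1, a GTPase that attacks the vacuoles of intracellular parasites, at 45.1 ± 9.37 RPKM. From the class II invariant chain Cd74 (28.5 ± 7.53 RPKM) to the next gene, Irgm2 (13.98 ± 1.75 RPKM), there was again a gap wider than the spread. The 21 genes from Irgm2 down to Gbp3 formed a run in which the mean ± SD ranges of neighbours overlapped, with further gaps below Gbp3, below Cxcl10 and above Ciita. The lowest members were Gbp6 at 0.368 RPKM, Ifi44 at 0.341 RPKM and Ciita at 0.118 ± 0.0433 RPKM. The members varied more between mice of a group than other genes did, with a median within-group SD of 0.35 on the log2 CPM scale against 0.27 over 15010 genes. Irf9 was the steadiest member (0.147) and Cxcl9 (0.689) and Ciita (0.609) were the least steady.

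**Figure D1:**
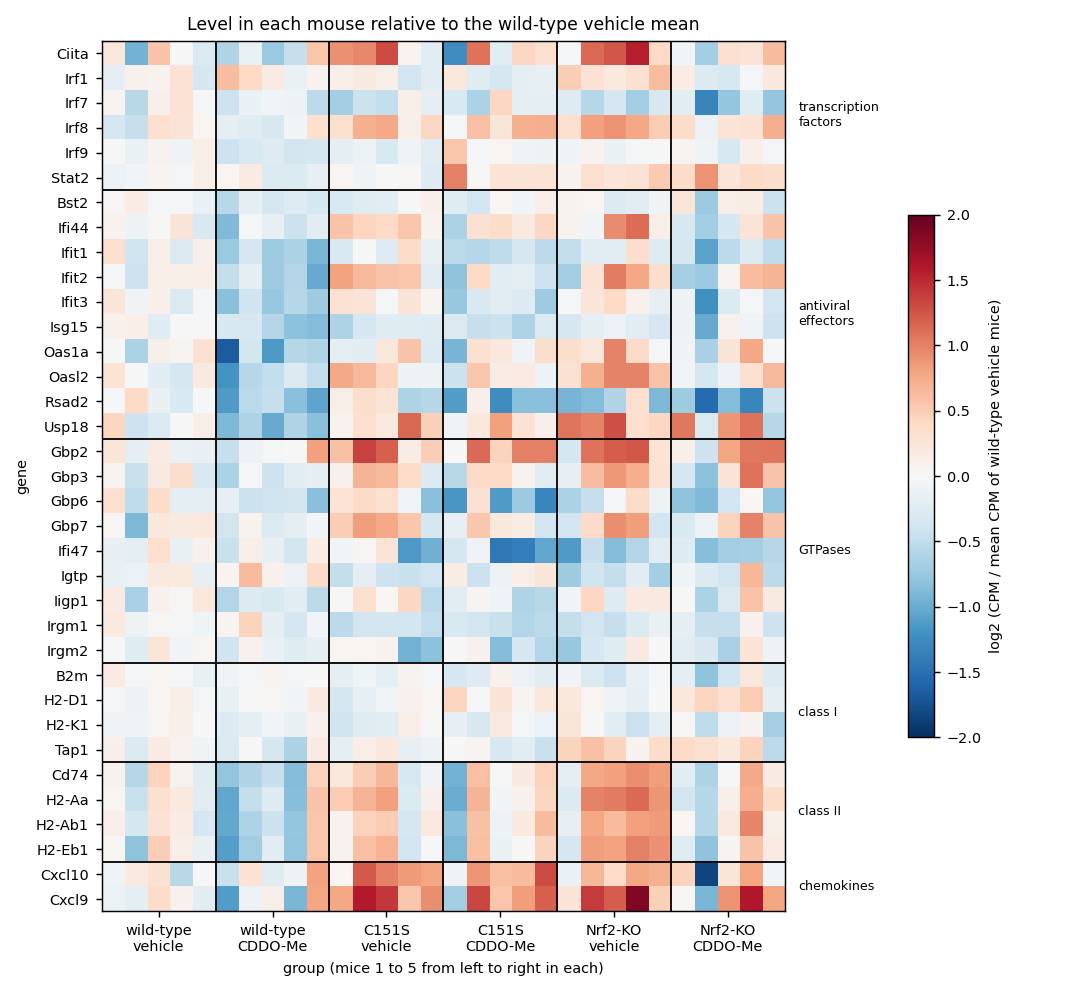
Heat map of the 35 members (rows, by role) in the 30 mice (columns, by genotype and treatment); colour is the log2 ratio of each mouse's CPM to the mean of vehicle-treated wild-type mice, from -2 to 2. The antiviral effectors of wild-type mice given CDDO-Me are mostly below 0, and the class II genes and chemokines of vehicle-treated Nrf2-knockout mice are above 0 in at least 4 of the 5 mice.

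In wild-type mice, CDDO-Me lowered 5 of the 35 members and raised none at an FDR under 0.05 with a log2 fold change of at least 0.5, and all 5 were antiviral effectors: Ifit3, Ifit1, Isg15, Rsad2 and Usp18. Over all 13697 genes tested, 2.75% were called, 1.66% as higher and 1.1% as lower. All 10 antiviral effectors were below 0, with a median log2 fold change of -0.62, and 29 of the 35 members were below 0, with a median of -0.29 against -0.01 over all genes tested. Without a limit on the fold change 7 members passed, adding Irf9 and Bst2, beside 1.58% of genes lower by that rule. The groups did not overlap for 6 members, beside 2.12% of genes that lay without overlap and lower. At an unadjusted p under 0.05 there were 12 members, all of them lower, beside 8.02% of all genes that were lower at that level.

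Ifit3, a tetratricopeptide protein (ENSMUSG00000074896.3, chr19:34583531-34588731), was at 9.62, 7.75, 8.73, 6.63 and 7.94 CPM in the 5 vehicle-treated wild-type mice and at 4.54, 6.18, 4.83, 5.48 and 4.95 CPM after CDDO-Me. Every treated mouse was below every vehicle mouse. The log2 fold change was -0.65 (SE 0.12, FDR = 0.00985 by edgeR), and it stayed past the threshold with any 1 of the 10 mice left out. Its neighbour and partner Ifit1 (chr19:34640871-34650009) was at 8.83, 5.35, 7.61, 5.78 and 7.55 CPM with vehicle and at 4.19, 5.55, 4.30, 4.54 and 3.72 CPM with CDDO-Me. The groups overlapped in 1 mouse of each. Ifit1 fell by 0.66 on the log2 scale (SE 0.15, FDR = 0.0315), and the call was lost without vehicle replicates 1, 3 or 5 or CDDO-Me replicates 1, 3, 4 or 5, with an FDR of up to 0.0897.

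Isg15, a ubiquitin-like protein conjugated to antiviral targets (chr4:156199424-156200818), was at 8.78, 9.16, 7.06, 8.35 and 8.23 CPM with vehicle and at 6.65, 6.68, 5.54, 4.72 and 4.58 CPM with CDDO-Me. The groups did not overlap. The log2 fold change was -0.57 (SE 0.13, FDR = 0.0259), and without vehicle replicates 1, 4 or 5 or CDDO-Me replicates 3 or 4 the FDR rose to at most 0.0621. Usp18, the protease that removes ISG15 and restrains the interferon receptor (chr6:121245906-121270917), was at 11.3, 6.31, 6.87, 8.45 and 9.14 CPM with vehicle and at 4.54, 5.49, 4.20, 5.54 and 4.70 CPM with CDDO-Me. All treated mice were again the lower ones. Usp18 fell by 0.78 on the log2 scale (SE 0.16, FDR = 0.013).

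Rsad2, which encodes viperin (chr12:26442746-26456452), was at 8.12, 11.01, 7.58, 6.78 and 8.44 CPM with vehicle and at 3.83, 5.79, 6.07, 4.72 and 4.06 CPM with CDDO-Me, again without overlap. It fell by 0.78 on the log2 scale (SE 0.16, FDR = 0.0158). Usp18 and Rsad2 kept their calls with any 1 mouse left out, but in a fit of all 30 libraries together their FDR was 0.244 and 0.234 and that of Isg15 was 0.0519, while Ifit3 (0.0498) and Ifit1 passed. Of the other 5 effectors, Bst2 was lower by a smaller step (log2 fold change -0.34, FDR = 0.0273, no overlap between groups), and Ifit2 (-0.58, FDR = 0.0806), Oasl2 (-0.57, FDR = 0.0964), Oas1a (-0.79, FDR = 0.102) and Ifi44 (-0.32, FDR = 0.411) did not pass. DESeq2 called Ifit2 (adjusted p = 0.0304), Oas1a (0.0464) and Oasl2 (0.0323) as well.

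**Figure D2:**
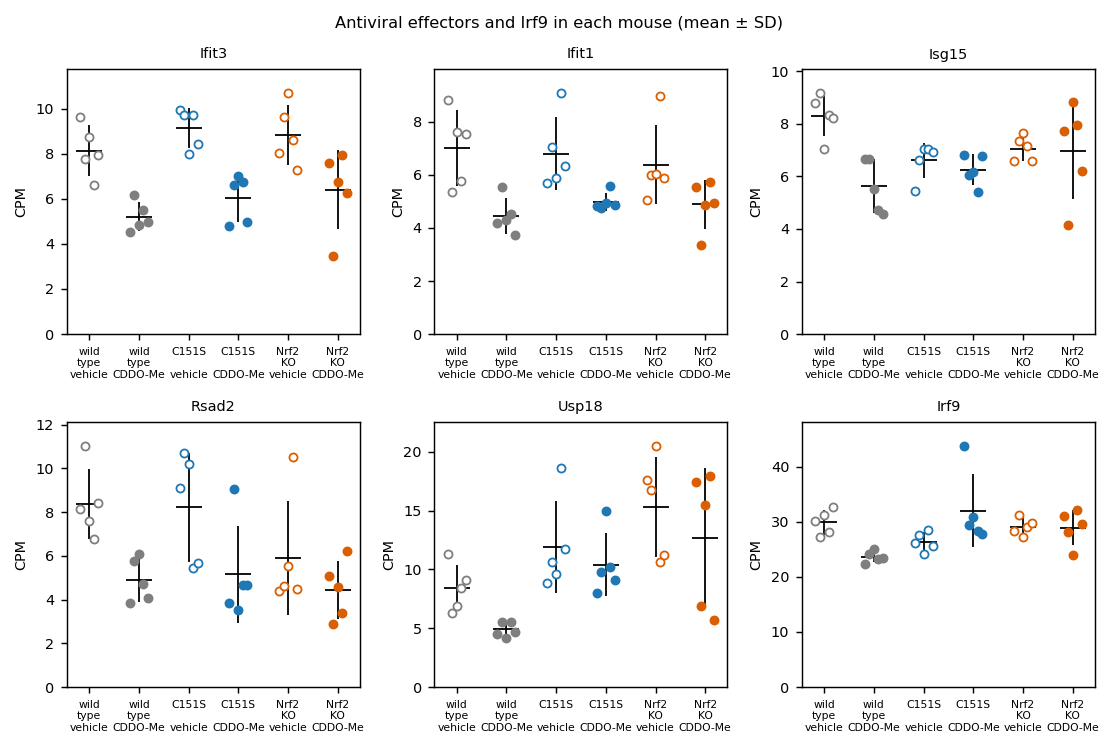
CPM of Ifit3, Ifit1, Isg15, Rsad2, Usp18 and Irf9 in each mouse (open points, vehicle; filled points, CDDO-Me; bars, mean ± SD, n = 5) by genotype. In wild-type mice the treated points lie below all vehicle points for 5 of the 6 genes, Ifit1 being the exception, and every C151S mouse given CDDO-Me lies above every wild-type mouse given CDDO-Me for Usp18.

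Among the transcription factors, Irf9, the DNA-binding subunit of the type I interferon complex (ENSMUSG00000002325.15, chr14:55603571-55610030), was at 30.1, 27.2, 31.3, 28.2 and 32.7 CPM with vehicle and at 22.4, 24.2, 25.1, 23.2 and 23.4 CPM with CDDO-Me in wild-type mice. The groups did not overlap, and the log2 fold change was -0.35 (SE 0.07, FDR = 0.0125), a smaller step than the limit of 0.5. The annotated span of Irf9 overlaps that of Rnf31 on the same strand, and reads from any exons they share were not counted. Its partner Stat2 was at 64.3 ± 4.02 CPM with vehicle and 60.4 ± 8.39 CPM with CDDO-Me, and Irf1 was among the 6 members above 0, with a log2 fold change of 0.24.

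The GTPases, class I genes, class II genes and chemokines gave no call in wild-type mice. The 9 GTPases had a median log2 fold change of -0.16, from -0.44 for Gbp6 (FDR = 0.291) to 0.22 for Igtp, and the 4 class I genes had a median of -0.07. All 4 class II genes were below 0 (median -0.34), and 1 treated mouse lay far above the others for Cd74 and H2-Ab1. Cd74 was at 50.2, 32.2, 65.9, 50.4 and 40.3 CPM with vehicle and at 27.6, 31.6, 34.6, 26.3 and 66.1 CPM with CDDO-Me, so replicate 5 of the treated group stood as high as the highest vehicle mouse. Without that mouse Cd74 was at a log2 fold change of -0.68 (FDR = 0.0463) and H2-Ab1, the class II beta chain, at -0.70 (FDR = 0.0277). The summed level of 9 dendritic cell markers was 8.53 ± 0.914 CPM with vehicle and 9.61 ± 2.02 CPM with CDDO-Me. The highest treated value, 12.9 CPM, was in that same mouse. The summed level of 6 B cell markers was 17.1 ± 5.52 and 10.7 ± 2.20 CPM. Of these 6, 4 were above 0 and 1 was called lower. The summed level of 10 Kupffer cell markers was 317 ± 90.9 and 308 ± 46.1 CPM, with 8 of the 10 below 0 and none called. Their part in the class II values was not tested.

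Genes of the same pathway outside the set were counted in lists. Of 48 other interferon-stimulated genes tested, 39 were below 0 in wild-type mice (median -0.23) and 3 fell: Gbp10 (log2 fold change -1.30, SE 0.25, FDR = 0.0108), Ifi27l2a (-1.17, FDR = 0.032) and Ifi27 (-0.65, FDR = 0.0423). Of 22 genes of interferon receptors and signalling, 1 was called, the RNA helicase Dhx58, a regulator of RIG-I-like receptors, which fell by 0.75 on the log2 scale (FDR = 0.00218). None of 32 other antigen processing and presentation genes was called by edgeR, and their median was -0.02.

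In C151S mice, none of the 35 members was called after CDDO-Me by edgeR, beside 0.092% of 14128 genes. At an unadjusted p under 0.05 there were 7 members, 3 higher and 4 lower, beside 13.7% of all genes, and DESeq2 called 1, Ifit3. The members had a median log2 fold change of -0.12, with 28 of 35 below 0. Ifit3 was at 9.92, 9.73, 7.99, 9.72 and 8.42 CPM with vehicle and at 4.81, 6.61, 6.995, 6.75 and 4.96 CPM with CDDO-Me. The groups did not overlap, as in wild-type mice, and the log2 fold change was -0.61 (SE 0.14), close in size to the wild-type value of -0.65, but with an FDR of 0.251. Ifit1 did not overlap either (log2 fold change -0.45, FDR = 0.347), and 1.29% of all genes tested lay without overlap and lower in treated mice. Isg15 was at 6.61 ± 0.681 CPM with vehicle and 6.25 ± 0.587 CPM with CDDO-Me, and Usp18 at 11.9 ± 3.91 and 10.4 ± 2.67 CPM, both with overlapping groups. The members above 0 were led by Stat2 (0.45), Igtp (0.39) and the class I heavy chain H2-D1 (0.27).

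In Nrf2-knockout mice, again no member was called by edgeR, and 0% of 14474 genes was called. There were 7 members at an unadjusted p under 0.05, all lower, beside 4.03% of all genes that were lower at that level, and DESeq2 called no member. The median log2 fold change of the members was -0.28, with 29 of 35 below 0. The 7 were Irf1 (-0.43, FDR = 0.547), Oasl2 (-0.62), Ifit3 (-0.48) and 4 genes of the class II program, namely Ciita (-0.82), H2-Aa (-0.72), H2-Eb1 (-0.71) and Cd74 (-0.60). Ifit3 was at 8.02, 9.63, 10.7, 8.61 and 7.27 CPM with vehicle and at 7.57, 3.48, 6.75, 7.92 and 6.25 CPM with CDDO-Me, with overlapping groups. H2-Aa, the class II alpha chain, was at 16.9, 40.7, 42.2, 44.7 and 37.8 CPM with vehicle and at 15.7, 13.8, 21.99, 33.8 and 26.4 CPM with CDDO-Me, where 4 of 5 vehicle mice were above every treated mouse. The list of other interferon-stimulated genes was below 0 for 36 of 49 genes in C151S mice (median -0.15) and for 40 of 50 in Nrf2-knockout mice (median -0.24), with none called by edgeR in either genotype.

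The response to CDDO-Me was then compared between genotypes by interaction terms, in which the same wild-type mice serve in 2 of the 3 contrasts. Between wild-type and C151S mice 1 member differed, Irf9, beside 0.48% of 15010 genes in either direction and 0.0933% with a lower response in wild-type mice. In C151S mice Irf9 was at 26.1, 27.6, 24.2, 28.5 and 25.6 CPM with vehicle and at 43.7, 29.3, 30.8, 28.3 and 27.8 CPM with CDDO-Me, a log2 fold change of 0.27 (SE 0.13, FDR = 0.366). The difference of the responses was -0.62 (SE 0.14, FDR = 0.0303). Without the treated mouse at 43.7 CPM it was -0.47 (FDR = 0.0324), and it missed the threshold, at FDRs of up to 0.0646, without wild-type vehicle replicates 1, 3 or 5, wild-type CDDO-Me replicates 1, 4 or 5, or C151S vehicle replicates 1, 3 or 5. Isg15 differed by -0.48 (FDR = 0.536) and Stat2 by -0.55 (FDR = 0.441).

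Between wild-type and Nrf2-knockout mice no member's response differed by edgeR, beside 0.266% of genes. The 3 members at an unadjusted p under 0.05, beside 6.28% of genes, were Irf1, at 0.66 (SE 0.20, FDR = 0.308), Isg15, at -0.54 (FDR = 0.56), and Irf9, at -0.33 (FDR = 0.682), and DESeq2 called none. Between C151S and Nrf2-knockout mice no member differed by edgeR or DESeq2, beside 0.0133% of genes called by edgeR, with 1 member and 4.92% of genes at an unadjusted p under 0.05. The treatment responses of the other members were thus not shown to differ by genotype at this number of mice, the 5 effectors called in wild-type mice among them.

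**Figure D3:**
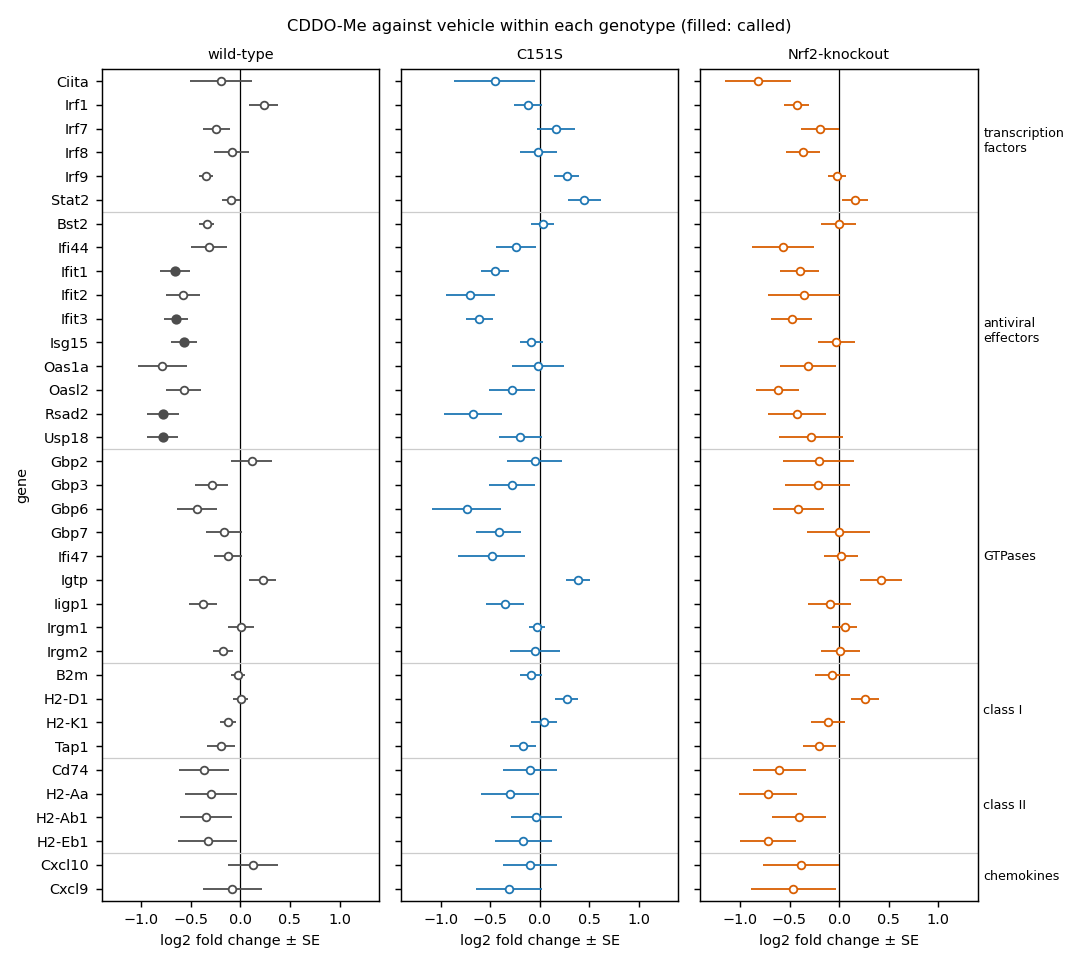
Log2 fold change of each member after CDDO-Me against vehicle (point, estimate; line, ± SE) in each of the 3 genotypes; filled points passed the test. The filled points are 5 antiviral effectors in wild-type mice, from -0.57 to -0.78, and the estimates of the same genes lie on the same side of 0 in both mutants.

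Without treatment, C151S mice had higher levels of the interferon-γ-inducible chemokines than wild-type mice. Of the 35 members 3 rose and none fell, beside 2.59% of 13946 genes called higher and 4.84% called in either direction. The median of the members was 0.09 against 0.01 over all genes. Cxcl9, which draws in activated T cells (chr5:92321347-92328079), was at 7.42, 7.13, 10.4, 8.61 and 6.88 CPM in wild-type mice and at 13.8, 24.3, 21.6, 11.8 and 15.3 CPM in C151S mice, with no overlap, as held for 3.24% of genes in that direction. The log2 difference was 1.12 (SE 0.21, FDR = 0.00893) and held with any 1 mouse left out. Cxcl10, its near relative, differed by 0.84 (SE 0.23, FDR = 0.0474) and Gbp2, a guanylate-binding protein, by 0.85 (SE 0.23, FDR = 0.0422), both with overlapping groups. Each of these 2 calls held in only 2 of the 10 fits that left out 1 mouse, and was lost without any of the wild-type mice and without C151S replicates 2 or 3 (Gbp2 also without replicate 1, Cxcl10 without replicate 5), with FDRs of up to 0.116. With all 30 libraries in 1 fit none of the 3 was called by edgeR (FDR = 0.109 for Cxcl9, 0.142 for Cxcl10 and 0.127 for Gbp2).

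Markers of several cell types were also on the higher side in these C151S mice, and those of others were lower. The summed T and NK cell markers were 4.22 ± 1.33 CPM in wild-type and 6.21 ± 1.78 CPM in C151S mice, the dendritic cell markers 8.53 ± 0.914 and 11.9 ± 2.62 CPM, and those of sinusoidal endothelium 165 ± 12.2 and 212 ± 37.4 CPM. Of the markers tested, 6 of 7 for T and NK cells, 7 of 7 for dendritic cells and 6 of 6 for endothelium had a difference above 0. None of them was called by edgeR, with 4, 3 and 4 higher at an unadjusted p under 0.05, beside 1861 of 13946 genes. The summed cholangiocyte markers were lower, 39.0 ± 12.4 CPM in wild-type and 23.2 ± 3.91 CPM in C151S mice, with 5 of 5 below 0 and 1 called. The B cell sum was lower as well, 17.1 ± 5.52 and 11.4 ± 3.99 CPM, though 4 of its 6 markers were above 0. The part of any of these cell types in the chemokine values was not tested.

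Other GTPases went the other way. Irgm1, a GTPase of autophagy control, was at 71.7, 58.7, 64.1, 61.1 and 59.0 CPM in wild-type mice and at 43.5, 49.0, 49.0, 48.6 and 44.7 CPM in C151S mice, without overlap. The log2 difference was -0.41 (SE 0.08, FDR = 0.00956), below the limit of 0.5. Igtp was lower as well, by -0.36 (FDR = 0.0422). Its annotated span overlaps that of Irgm2, and reads from any exons they share were not counted. At any size of the difference 4.75% of genes were lower. The groups also did not overlap for Isg15, which was lower in C151S mice (-0.32, FDR = 0.0849), and 5.65% of all genes lay without overlap and lower. Within the C151S libraries of high Arntl, replicates 1, 2 and 3, 9 members were called, the 3 above with H2-Aa (0.70), Ifit2 (0.70), Oasl2 (0.65), Gbp7 (0.73), Ciita (1.09) and Irf8 (0.63). All 9 were higher. Over all genes that fit called 2030 in either direction, beside 675 in the fit of all mice of both groups. The share of genes that it called higher was not computed. Of the other lists, Pdia3, a chaperone of class I loading, was lower (-0.61, FDR = 0.00456), as was Oasl1 (-0.62, FDR = 0.0132), while Slfn5 (0.66, FDR = 0.00987), Ifi203 (0.74, FDR = 0.0201) and Trim30a (0.71, FDR = 0.0201) were higher.

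Vehicle-treated Nrf2-knockout mice differed from wild-type mice in 7 members, 6 higher and 1 lower, beside 6.29% of 14030 genes called higher and 4.13% called lower. Over all genes 10.4% were called, and the median of the members was 0.40 against 0.01. Oasl2, of the oligoadenylate synthetase family, was at 4.87, 4.05, 3.44, 3.17 and 4.55 CPM in wild-type mice and at 4.97, 6.55, 8.02, 8.02 and 5.99 CPM in Nrf2-knockout mice, without overlap, as held for 5.07% of genes in that direction. It was higher by 0.77 on the log2 scale (SE 0.18, FDR = 0.015), a call that held with any 1 mouse left out. Cxcl9 was at 9.65, 21.4, 18.6, 29.3 and 11.2 CPM in the knockout mice, a log2 difference of 1.18 (SE 0.28, FDR = 0.0164) with replicate 1 inside the wild-type range. Usp18 was at 17.6, 16.8, 20.5, 10.6 and 11.2 CPM, a log2 difference of 0.89 (SE 0.21, FDR = 0.0152) that was 0.41 (FDR = 0.202) with the Arntl side as a term.

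All 4 class II genes were above 0 in vehicle-treated Nrf2-knockout mice (median 0.72). H2-Aa was at 20.99, 15.1, 25.5, 23.4 and 17.4 CPM in wild-type mice, against the knockout values given above, and H2-Ab1 was at 19.6, 13.9, 21.8, 19.7 and 14.02 CPM against 15.9, 30.4, 27.5, 31.5 and 32.3 CPM. For both, knockout replicate 1 lay inside the wild-type range and the other 4 lay above it. The log2 differences were 0.86 (SE 0.24, FDR = 0.033) for H2-Aa and 0.65 (SE 0.20, FDR = 0.0456) for H2-Ab1. Neither was called with all 30 libraries in 1 fit (FDR = 0.0668 and 0.135), and H2-Aa was not called with the Arntl side as a term (1.04, FDR = 0.0583). Cd74 (0.71, FDR = 0.053), H2-Eb1 (0.74, FDR = 0.0754) and Ciita (0.98, FDR = 0.0683) did not pass, and without knockout replicate 1 Cd74 (0.87, FDR = 0.00656) and H2-Eb1 (0.92, FDR = 0.0102) did. Irf8, a transcription factor of dendritic cells and monocytes whose annotated span overlaps another gene model, was higher by 0.70 (SE 0.18, FDR = 0.0211). With the Arntl side as a term the difference of Irf8 was of like size but not called (0.68, FDR = 0.093).

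The class II calls rested on few mice. The call of H2-Aa was lost without wild-type replicates 1, 2, 4 or 5 or knockout replicates 2, 3 or 4, and that of H2-Ab1 without those or knockout replicate 5, with FDRs of up to 0.101. Markers of several cell types were higher as well, while the B cell sum was lower, with 4 of its 6 markers below 0 and none called. The summed dendritic cell markers ranged from 7.76 to 9.84 CPM in vehicle-treated wild-type mice and from 10.1 to 16.8 CPM in vehicle-treated Nrf2-knockout mice, with 3 of the 7 tested called higher (Clec9a, Flt3 and Itgax), and the lowest knockout value was that of replicate 1. The summed T and NK cell markers were 4.22 ± 1.33 and 7.46 ± 2.55 CPM, those of sinusoidal endothelium 165 ± 12.2 and 246 ± 49.0 CPM, those of Kupffer cells 317 ± 90.9 and 392 ± 124 CPM and those of B cells 17.1 ± 5.52 and 13.4 ± 5.25 CPM. Those of monocytes and neutrophils were 3.94 ± 1.14 and 8.6 ± 3.28 CPM, with 3 of 5 tested markers called higher, and those of stellate cells 173 ± 27.7 and 249 ± 93.6 CPM, with 3 of 6 called higher. Their part in the class II and chemokine values was not tested.

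**Figure D4:**
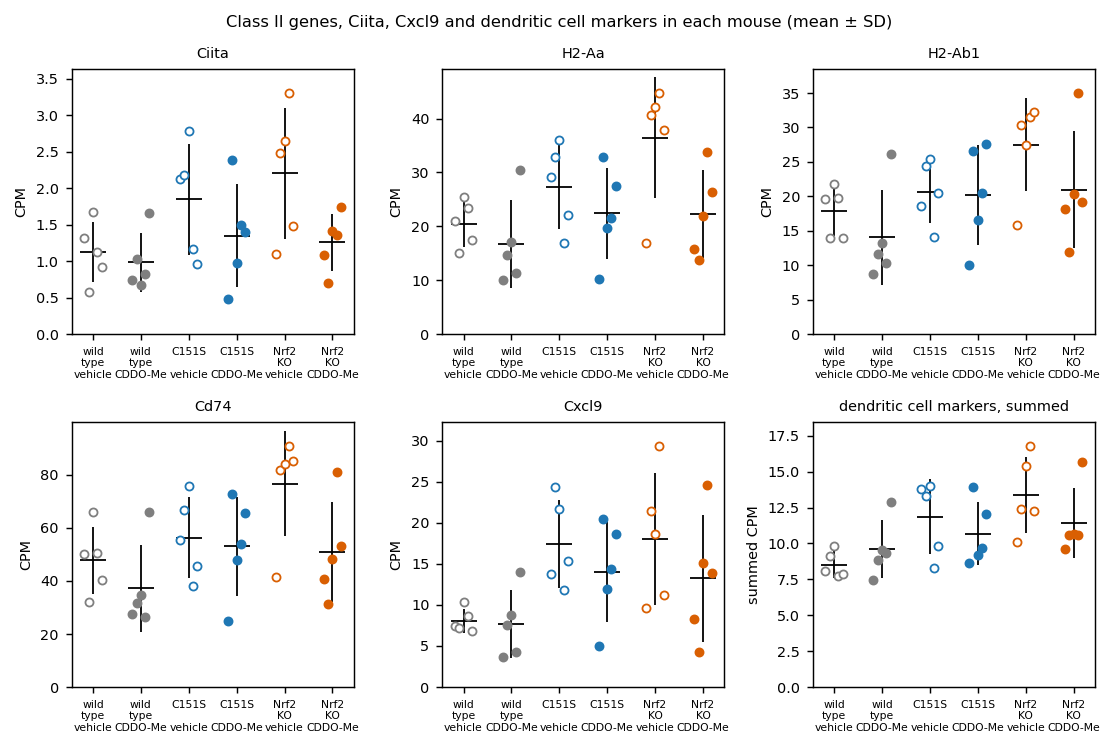
CPM of Ciita, H2-Aa, H2-Ab1, Cd74 and Cxcl9, and the summed CPM of 9 dendritic cell markers, in each mouse by genotype and treatment (open points, vehicle; filled points, CDDO-Me; bars, mean ± SD, n = 5). In vehicle-treated Nrf2-knockout mice 4 of 5 points lie above the wild-type points for H2-Aa and H2-Ab1, and all 5 do for the dendritic cell sum.

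A single member fell in vehicle-treated Nrf2-knockout mice, the GTPase Ifi47, whose annotated span overlaps that of Olfr56. It was at 20.9, 20.8, 29.5, 21.2 and 25.0 CPM in wild-type mice and at 10.7, 17.0, 12.8, 15.7 and 20 CPM in knockout mice, without overlap, as held for 7.21% of genes in that direction. The log2 difference was -0.60 (SE 0.17, FDR = 0.032), it was -0.36 (FDR = 0.265) with the Arntl side as a term and -0.62 (FDR = 0.0864) with all 30 libraries in 1 fit, and the call was lost without wild-type replicates 3, 4 or 5 or knockout replicates 1 or 3, at FDRs of up to 0.0778. Irgm1 (-0.32) and Igtp (-0.46) were lower with an FDR under 0.05 and a step below the limit, as in C151S mice, with which they share the wild-type mice. Stat2 (0.31), Irf1 (0.40) and Tap1, the peptide transporter of class I loading (0.41), were higher in the same way. At any size of the difference 8.07% of genes were lower and 8.37% higher. In the other lists both chains of the interferon-γ receptor were higher, Ifngr1 by 0.57 (FDR = 0.0106) and Ifngr2 by 0.66 (FDR = 0.00739), as was the transporter subunit Tap2 (0.53, FDR = 0.00974), while Pdia3 (-0.52, FDR = 0.00553) and the lipid-presenting molecule Cd1d1 (-0.55, FDR = 0.0125) were lower.

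After CDDO-Me, Usp18 was the member that set both mutants apart from wild-type mice. With vehicle its mean was also above that of wild-type mice in both mutants, with a call in Nrf2-knockout mice only. After CDDO-Me it was at 4.54, 5.49, 4.20, 5.54 and 4.70 CPM in wild-type mice and at 7.996, 9.76, 14.9, 10.2 and 9.08 CPM in C151S mice. In Nrf2-knockout mice given CDDO-Me it was at 17.5, 6.87, 15.5, 17.96 and 5.69 CPM. Every mutant mouse was above every wild-type mouse, as held for 2.55% of genes in C151S and 4.1% in Nrf2-knockout mice. In C151S mice it was the 1 member called, with a log2 difference of 1.104 (SE 0.17, FDR = 0.00293), beside 2.2% of 13844 genes called higher and 5% in either direction, and it held with any 1 mouse left out and in all 10 alternatives. In Nrf2-knockout mice the difference was 1.39 (SE 0.30, FDR = 0.0112), and it was 0.38 both with the Arntl side as a term (FDR = 0.13) and within the libraries of high Arntl (FDR = 0.212). In these 2 fits Irf7 was called lower in treated Nrf2-knockout mice, by -0.75 in both (FDR = 0.049 and 0.0497). Over all genes 1087 were called within the libraries of high Arntl.

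The other effectors were also on the higher side in the treated mutants, 10 of 10 above 0 in C151S mice and 9 of 10 in Nrf2-knockout mice, and the medians of all members were 0.28 and 0.33 against 0.03 over all genes. These comparisons share the treated wild-type mice. Stat2 was the other member called in treated Nrf2-knockout mice, beside 4.59% of 13935 genes called higher and 9.44% in either direction. It was at 65.9, 72.3, 53.5, 53.4 and 57.1 CPM in wild-type mice and at 82.6, 120, 75.7, 83.7 and 82.3 CPM in knockout mice, without overlap. The log2 difference was 0.57 (SE 0.13, FDR = 0.0164), and it was 0.45 (FDR = 0.0172) without knockout replicate 2, the mouse at 120 CPM, where it missed the limit on the fold change, and also lost its call without wild-type replicate 3, with an FDR of up to 0.0547. Irf9 was higher in treated C151S mice by 0.45 (FDR = 0.0496) and in treated Nrf2-knockout mice by 0.31 (FDR = 0.0438), both below the limit of 0.5, beside 2.99% and 5.78% of genes higher at any size.

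Other genes of the pathway in treated C151S mice included Ifi205, a DNA-sensing family member, at 1.86 (FDR = 0.00752), Oas2 at 1.43 (FDR = 0.0129) and Phf11d at 0.82 (FDR = 0.0222). Ifi205 was near the limit of detection, with means of 0.388 CPM in C151S and 0.105 CPM in wild-type mice. In the treated wild-type libraries 3 counts correspond to 0.0879 to 0.117 CPM. Rfx5, a subunit of the factor that CIITA acts through at class II promoters, was lower in both treated mutants, by -0.74 (FDR = 0.00287) in C151S mice and by -0.51 (FDR = 0.00348) in Nrf2-knockout mice. Cd1d1 was lower in both as well, by -0.54 (FDR = 0.0165) and -0.84 (FDR = 0.000106). In the wild-type mice both genes were higher with CDDO-Me than with vehicle. Rfx5 was at 13.3 CPM with vehicle and 17.3 CPM with CDDO-Me (edgeR FDR = 0.0542, not called). Cd1d1 was at 236 and 321 CPM (log2 fold change 0.435, edgeR FDR = 0.0115), a step below the limit of 0.5. In treated Nrf2-knockout mice the RNA sensor Ifih1 (0.53, FDR = 0.0049), Tap2 (0.63, FDR = 0.00698) and Ifngr1 (0.59, FDR = 0.0102) were higher. Both mutant comparisons use the same wild-type mice.

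**Figure D5:**
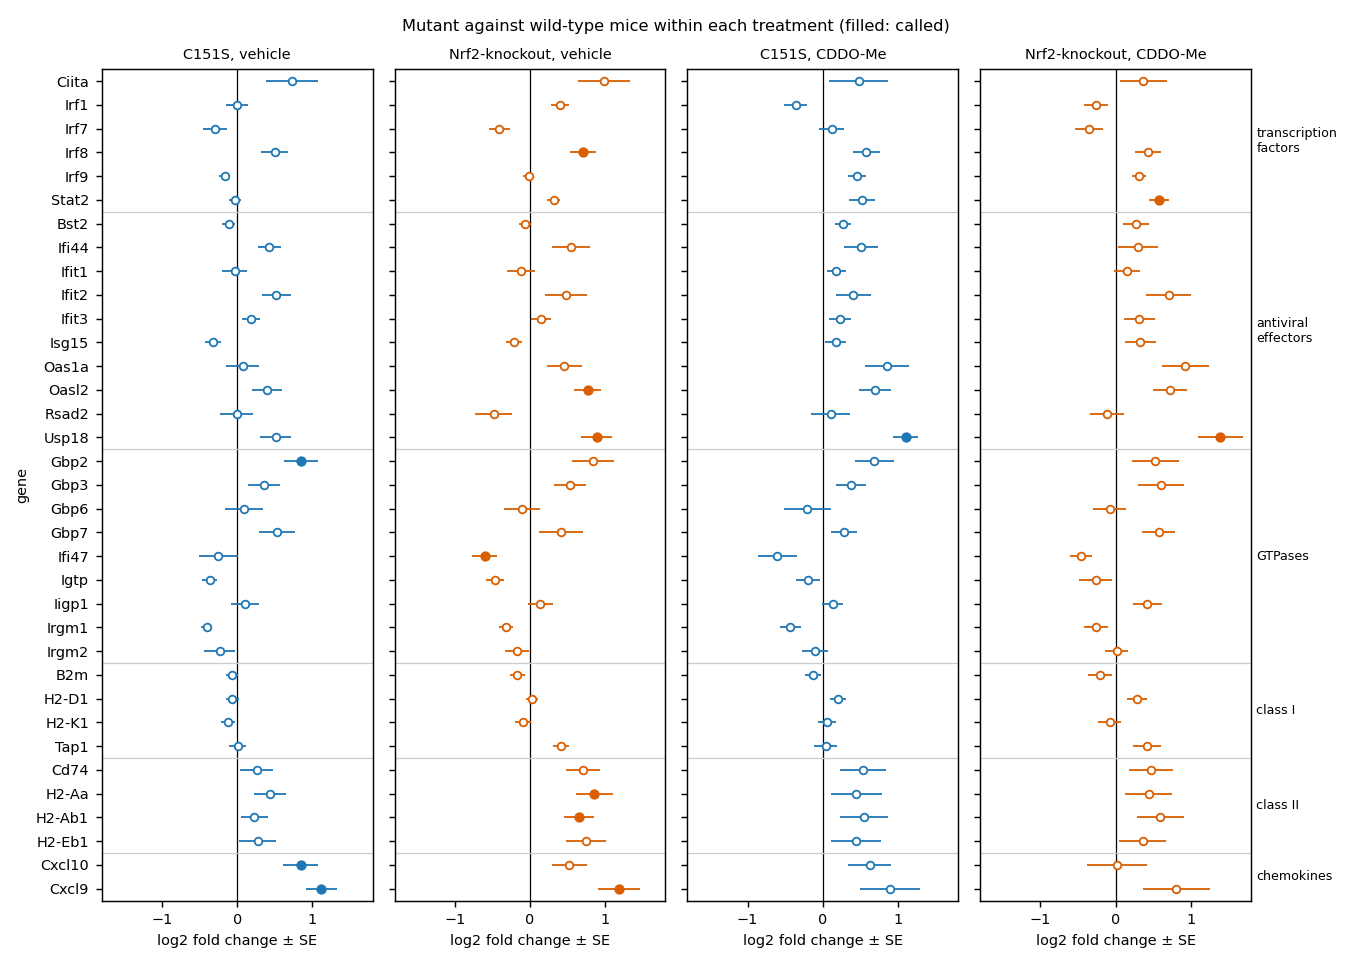
Log2 difference of each member between C151S or Nrf2-knockout mice and wild-type mice, given vehicle or CDDO-Me (point, estimate; line, ± SE); filled points passed the test. Usp18 reaches 1.39 in Nrf2-knockout mice given CDDO-Me, and the filled points of vehicle-treated Nrf2-knockout mice are 6 above and 1 below 0.

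No member was called between the mutants. Between vehicle-treated C151S and Nrf2-knockout mice edgeR and DESeq2 called no member, beside 0.349% of 14323 genes by edgeR, and 3 members and 11.3% of genes were at an unadjusted p under 0.05, the members being Tap1 (-0.40, FDR = 0.244), Stat2 (-0.34, FDR = 0.268) and Irf1 (-0.41, FDR = 0.30). The groups of Stat2 and of Irf1 did not overlap, each being lower in C151S mice, as held for 1.2% of genes in that direction. Between the same genotypes given CDDO-Me neither tool called a member, beside 0.162% of 14186 genes by edgeR, and 1 member and 7.82% of genes were at an unadjusted p under 0.05, the member being Tap1 (-0.38, FDR = 0.631). The class II genes were lower in vehicle-treated C151S than Nrf2-knockout mice by a median of -0.43, none past the test.

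Several members also lay apart between the mutant libraries on either side of the Arntl gap, which are given as values with no test because the sides are not groups of the study. Among the 10 C151S libraries Irf7, the factor that amplifies the type I response, was at 25.5 to 39.02 CPM in the 5 of low Arntl and at 18.4 to 23.8 CPM in the 5 of high Arntl. H2-K1 (1000 to 1242 against 820 to 962 CPM) and Bst2 (123 to 139 against 97.6 to 110 CPM) were also higher in the libraries of low Arntl, beside 6.5% of 15010 genes that lay without overlap in that direction. The GTPases Ifi47 (8.75 to 12.01 against 18.3 to 27.99 CPM) and Irgm2 (26.9 to 40.7 against 51.97 to 54.9 CPM) were lower there, beside 4.84% of genes. Among the Nrf2-knockout libraries Usp18 was the 1 member that lay apart, at 15.5 to 20.5 CPM in the 6 of low Arntl and at 5.69 to 11.2 CPM in the 4 of high Arntl, beside 1.75% of genes.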

How the data were processed

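Liver mRNA of 30 mice was sequenced. The values the authors deposited are unnormalized gene counts from STAR 2.7.7 (build mm10, GENCODE annotation, reads assessed but not altered with fastp). The submitters' notes also name edgeR 3.36.0. The 4 summary lines of the table (19.36 to 34.11% of reads) were left out. Symbols came from a GENCODE annotation of the same build (55154 of 55335 genes had one). Groups came from the labels, and 1 column was matched to a title that lacks a letter. Counts were tested per comparison with edgeR 4.0.16 in R 4.3.3 (TMM, filterByExpr, legacy quasi-likelihood fit, Benjamini-Hochberg over all genes tested), and a call needed an FDR under 0.05 and a log2 fold change of at least 0.5. Response differences were interaction terms over 30 libraries with an FDR under 0.05. SE is the fold change divided by the root of F, and log2 CPM used a prior count of 2. The test was tried on simulated data. Alternatives were DESeq2 1.42.0, other normalization, filters, fits and libraries left out. All 35 members, and other lists by their calls of lowest p, were named. Members and lists were chosen with earlier results of these data known.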

Additional observations from a re-analysis of the deposited data

Results flagged for a closer look

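Of 210 sets of 5 mice (35 members in 6 groups), 20 held a mouse whose distance from its nearest neighbour took up more of the group's range than Dixon's 95% limit, where chance alone gives about 1 in 20 sets. In vehicle-treated Nrf2-knockout mice replicate 1 was low for Cd74 (ratio 0.815, 41.7 CPM against 81.7 in the next mouse), H2-Aa (0.752) and H2-Eb1 (0.785), and replicate 4 was high for Ifit1 (0.754) and Rsad2 (0.819). In wild-type mice given CDDO-Me replicate 5 was high for Cd74 (0.79, 66.1 against 34.6 CPM), H2-Ab1 (0.741) and Gbp2 (0.727), and in vehicle-treated wild-type mice replicate 2 was low for Gbp7 (0.779) and Iigp1 (0.735).

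In C151S mice given CDDO-Me replicate 1 was high for Irf9 (0.809, 43.7 against 30.8 CPM), Stat2 (0.798, 129 against 78.1 CPM) and Irf1 (0.725) and low for Ifi44 (0.716), replicate 2 was high for Rsad2 (0.792) and Gbp6 (0.76), and replicate 4 was high for Ifit1 (0.774). The same replicate 1 had the highest summed monocyte and neutrophil markers, 21.99 CPM against 3.11 to 10.3 CPM in the other 4 mice, and the part of those cells in its values was not tested. Replicate 1 of vehicle-treated C151S mice was low for Isg15 (0.736). In Nrf2-knockout mice given CDDO-Me replicate 2 was high for Stat2 (0.82, 120 against 83.7 CPM) and replicate 4 for Igtp (0.722).

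The response of Irf9 to CDDO-Me differed between wild-type and C151S mice by the interaction test, with a log2 difference of -0.62 (edgeR FDR = 0.0303). Without replicate 1 of treated C151S mice it was -0.47 (FDR = 0.0324).

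Leaving out single mice also added calls. Without replicate 2 of vehicle-treated wild-type mice Iigp1 fell by 0.50 on the log2 scale after CDDO-Me (FDR = 0.00724). Without replicate 4 of vehicle-treated Nrf2-knockout mice Rsad2 was at -0.80 against wild-type mice (FDR = 0.00803), and without replicate 5 of wild-type mice given CDDO-Me Gbp2 was at 0.93 in treated C151S mice (FDR = 0.036) and H2-Ab1 at 0.94 in treated Nrf2-knockout mice (FDR = 0.0385).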

How the results depend on the processing

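No member's fold change that was called turned direction under any alternative. The 5 calls of the wild-type treatment were 8 with DESeq2 and 2 with all 30 libraries in 1 fit, and 3 to 8 with 1 mouse left out (3 without vehicle replicates 1 or 5 or CDDO-Me replicates 3 or 4, 8 without vehicle replicate 2). The C151S treatment gave 0 calls with edgeR and 1 with DESeq2. Over all genes, the wild-type treatment gave 147 (all 30 libraries) to 580 (no limit on the fold change) calls beside 377, the C151S treatment 0 to 100 beside 13 and the Nrf2-knockout treatment 0 to 55 beside 0. C151S against wild-type gave 382 to 2030 beside 675 with vehicle and 294 to 1154 beside 692 with CDDO-Me, Nrf2-knockout against wild-type gave 954 to 2307 beside 1462 with vehicle, the mutants against each other 4 to 180 beside 50 and 0 to 126 beside 23, and the response differences 40 to 113 beside 72, 22 to 85 beside 40 and 0 to 3 beside 2. In vehicle-treated mice the 3 calls of C151S against wild-type were 9 with the Arntl side as a term and within libraries of high Arntl, 5 with no limit on the fold change and 0 with all 30 libraries, and 1 to 5 with 1 mouse left out (1 without any wild-type mouse or C151S replicates 2 or 3, 5 without C151S replicate 4). The 7 calls of Nrf2-knockout against wild-type were 11 with DESeq2, 12 with no limit on the fold change, 4 with all 30 libraries and 3 with the Arntl side as a term, and 3 (without knockout replicate 3) to 13 (without knockout replicate 1) with 1 mouse left out. With CDDO-Me, the 1 call of C151S was 5 with DESeq2, 4 with all 30 libraries, 2 with the Arntl side or with no limit on the fold change, and 1 to 6 with 1 mouse left out (6 without C151S replicate 1). The 2 calls of Nrf2-knockout were 4 with DESeq2 and with all 30 libraries, and 1 (without wild-type replicate 3) to 4 (without knockout replicates 1 or 2). They were again 2, 1 higher and 1 lower, with the Arntl side as a term and within libraries of high Arntl, where Usp18 was lost and Irf7 was called lower. The 1 response difference of wild-type and C151S was 0 with no filter on low counts, and 0 to 1 with 1 mouse left out. The cause of these changes was not tested. The alternative within libraries of high Arntl was chosen after seeing the data.

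The replicate numbers did not pair the mice, since no comparison had every same-numbered pair correlated above 0.1. With the replicate number as a block, the calls of C151S against wild-type were 1 with vehicle and 5 with CDDO-Me, those of Nrf2-knockout against wild-type with vehicle were 4, and those of the wild-type treatment were 4. The block ended the calls of Ifit1 in the wild-type treatment (FDR = 0.101), of Gbp2 (0.056) and Cxcl10 (0.0555) in vehicle-treated C151S mice, and of H2-Aa (0.0556), H2-Ab1 (0.0911) and Oasl2 (0.0566) in vehicle-treated Nrf2-knockout mice. The Nrf2-knockout treatment showed the highest mean correlation of same-numbered mice, 0.19 against -0.05 for different numbers, and 3 of its 5 numbers correlated best with themselves, as a hint from the data only.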
